A study of Mus musculus with 3 samples.

Results

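The genes described here are 9 regulators of lipolysis in mouse epididymal fat: the receptors Adrb1 and Adrb3, which raise lipolysis, the receptors Adra2a, Adora1, Ffar2, Ptger3 and Sucnr1, which restrain it, the natriuretic peptide clearance receptor Npr3 and the phosphodiesterase Pde3b. They were taken by gene name from the arrays, where they had 19 probes, and they are 9 of the 37324 genes read. In mature adipocytes all 9 gave a signal well above background, against 6 in small proliferative adipocytes and 3 in stromal vascular cells. Of all spots that are not controls, 61.3%, 61.4% and 58.6% did, so the count in small proliferative adipocytes is near that share. Of the 9 genes, 8 were at least 5-fold higher in mature adipocytes than in either of the other fractions, and Adra2a was the exception. Over all genes that could be read, 5.47% were that much higher than in small proliferative adipocytes and 5.72% than in stromal vascular cells.

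The study set small proliferative adipocytes (SPA), a fraction that floats with the fat cells but sediments from them in a harder spin, against stromal vascular cells (SVC) and mature adipocytes (MA). The source of all 3 fractions was the epididymal fat of male C57/BL mice aged 20 weeks, digested with collagenase, and the records name no genetic change and no drug. A spin of 9 g for 1 s put the SVC below, and a spin of 226 g for 3 min then parted the floating cells into MA on top and SPA as pellet. SVC and SPA were grown in DMEM to 90% confluency before RNA was taken, while no culture is described for MA, so culture and cell type cannot be told apart between MA and the other fractions. The sample titles also carry 1 date for SVC and SPA and another for MA, and the number of mice behind each RNA is not given in the sources used here. Each fraction was measured on 1 Agilent 1-colour array, made from 50 ng of RNA, so that no difference below has a replicate check and no test was run.

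Lipolysis is the release of fatty acids from the triglyceride of the fat droplet, and in the fat cell it is switched mainly through cyclic AMP. Catecholamines acting on beta-adrenergic receptors raise cyclic AMP through the G protein Gs, whereas receptors coupled to Gi lower it, and many of these answer to signals that the fat cell or its surroundings release, such as adenosine, prostaglandin E2, short-chain fatty acids and succinate. Insulin lowers cyclic AMP through the phosphodiesterase PDE3B, and natriuretic peptides raise lipolysis by a cyclic GMP route that the clearance receptor NPR3 limits.

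A probe is a 60-base DNA strand on the array, and its signal is the brightness of the labelled RNA bound to it after background subtraction. Levels are given as this processed signal or, on the log2 scale, as the signal over the 75th percentile of its array, which was 430 in SVC, 439 in SPA and 366 in MA. Of the 59305 spots that are not controls, the share that Agilent's software called well above background was 58.6% for SVC, 61.4% for SPA and 61.3% for MA. Ratios compare 1 probe between arrays, on the scaled values. A gene with several probes is read at the one brightest on average, called here the brighter probe. Beyond that choice the brightness of different probes is not compared, except in sums of marker levels, where the brightest marker weighs most. The limit of 5-fold follows the study. Where the dimmer array was not well above background, the fold is a lower bound, written as "at least", against the dimmest signal that still passed that call on the array (13.9 for SVC, 12.5 for SPA, 10.3 for MA) or the probe's own signal if that was higher. Errors are the 1 SD error that the software gives each spot within its array, and they hold no spread between animals or cultures. Probes spotted 10 times on each array had a median SD of log2 signal of 0.0378 to 0.0451 above a signal of 1000 and of 0.230 to 0.339 between 10 and 30, so the dim values below are the least precise.

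The names of the fractions were checked against adipocyte markers. Their levels summed to 10.8 in SVC, 88.3 in SPA and 3460 in MA, in units of the 75th percentile of the array, and Adipoq, the adiponectin gene, was not well above background in SVC. Of the 10 markers, 7 exceeded SVC by 5-fold or more in SPA, and 8 exceeded SPA in MA.

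Probes of 3 receptors are shown that are taken here to lie in the coding part of the message, since a reading frame runs through all their bases without a stop codon, although no annotation of mm9 was used to place them. A second probe of each gene, from 1596 to 39464 bases away, was the brighter and gave the level used below. In Adrb3 and Ptger3 this brighter probe also had a frame without a stop codon, so such a frame alone does not place a probe. Positions are those of mm9, and each probe is written 5′ to 3′ in the direction of the message. Capitals in Adrb3 and Ptger3 mark codons of the conserved motif at the end of the seventh membrane helix of this receptor class, and the Adora1 probe carries no capitals because none were marked in it.
Adrb3, chr8:28337864-28337923, minus strand: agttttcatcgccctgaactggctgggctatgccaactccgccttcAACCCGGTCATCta
Ptger3, chr3:157268044-157268103, plus strand: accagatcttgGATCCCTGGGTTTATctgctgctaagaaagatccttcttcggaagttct
Adora1, chr1:136099564-136099623, minus strand: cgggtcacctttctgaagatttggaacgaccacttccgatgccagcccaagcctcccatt

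Adrb3 encodes the beta3-adrenergic receptor, the main catecholamine receptor of rodent fat cells. Its signal was 9.83 ± 3.24 in SVC, 353 ± 35.4 in SPA and 20929 ± 2093 in MA at the brighter probe (chr8:28336268-28336327, minus strand), where only the SVC value was not well above background. The gene thus climbed from 1 fraction to the next, by at least 24.9-fold from SVC to SPA and by 71.1-fold from SPA to MA (log2 ratio 6.15 ± 0.20). The bound of SPA over SVC depends on the background: its log2 value was 4.64, but 2.55 when corrected by the normexp method, still past 5-fold. The probe printed above was dimmer, at 9.90 ± 3.75, 24.6 ± 4.01 and 1458 ± 146, and gave the same log2 ratio of MA over SPA, 6.15 ± 0.28. In SPA over SVC this dimmer probe could show a fold of no more than at least 1.74, since its SPA signal lay near the level that counts as measured.

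Adrb1 encodes the beta1-adrenergic receptor, which couples to Gs as well. Its single probe (chr19:56799215-56799274, plus strand) read 8.94 ± 3.28 in SVC, 5.74 ± 2.82 in SPA and 90.2 ± 9.31 in MA, and was well above background in MA alone. It was at least 8.67-fold higher in MA than in SPA and at least 7.64-fold higher than in SVC. No fold can be given between SPA and SVC, where both values were at background. Of the members past 5-fold, its call is the one lost in MA over SPA and in MA over SVC when the background is corrected by the normexp method, where the lower bounds of the log2 ratio are 1.38 and 1.30.

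Ffar2 encodes a receptor for short-chain fatty acids such as acetate. Its probe (chr7:31604149-31604208, minus strand) read 7.71 ± 3.72 in SVC, 139 ± 14.2 in SPA and 3846 ± 385 in MA, and was at background in SVC only. As with Adrb3, the level rose in both steps, by at least 9.79-fold from SVC to SPA and by 33.2-fold from SPA to MA (log2 ratio 5.06 ± 0.21). Corrected by the normexp method, SPA over SVC had a log2 ratio of at least 1.38, and this bound no longer reaches 5-fold.

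Adora1 encodes the adenosine A1 receptor, which restrains lipolysis when adenosine builds up around the cell. At the brighter probe (chr1:136095833-136095892, minus strand) it read 3.02 ± 3.02 in SVC, 20.0 ± 3.33 in SPA and 2106 ± 211 in MA. The SVC value equalled its own error, and the SPA value was only just well above background, so the fold of SPA over SVC was at least 1.41. MA was 126-fold higher than SPA (log2 ratio 6.98 ± 0.28). The printed probe, 3731 bases away on the same transcript record, read 12.7 ± 3.05, 18.0 ± 3.06 and 60.5 ± 6.39 and gave 4.04-fold (log2 ratio 2.01 ± 0.29). Both probes were thus highest in MA but differed in the size of the ratio by far more than their errors. A further probe, for another transcript and 36008 bases away, was not well above background on any array.

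Ptger3 encodes the EP3 receptor for prostaglandin E2. At its brighter probe (chr3:157307508-157307567, plus strand) it read 15.0 ± 3.45 in SVC, 8.25 ± 2.85 in SPA and 1065 ± 106.6 in MA. MA alone was well above background, at least 102-fold over SPA and at least 83.4-fold over SVC. The printed probe showed the same pattern with 12.1 ± 3.43, 13.2 ± 3.15 and 321 ± 32.2, at least 29.1-fold over SPA. The remaining probes of Ptger3 match other transcript records, and 1 read 13.4 ± 2.86 in MA, at least 1.29-fold over SPA, while the other was not well above background on any array.

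Sucnr1 encodes the succinate receptor. Its probe (chr3:59891281-59891340, plus strand) read 3.37 ± 3.38 in SVC, 10.9 ± 3.12 in SPA and 2030 ± 203 in MA. Neither cultured fraction was well above background, and MA was at least 195-fold higher than SPA and at least 172-fold higher than SVC.

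Adra2a encodes the alpha2A-adrenergic receptor, which answers to the same catecholamines as the beta receptors but lowers cyclic AMP. Its probe (chr19:54123363-54123422, plus strand) read 62.1 ± 6.92 in SVC, 34.4 ± 4.36 in SPA and 74.2 ± 7.76 in MA, well above background on all 3 arrays. SPA was the lowest of the 3, with SVC 1.84-fold higher (log2 ratio of SPA over SVC -0.88 ± 0.24) and MA 2.59-fold higher (log2 ratio 1.37 ± 0.24). MA exceeded SVC by 1.41-fold only (log2 ratio 0.49 ± 0.22). Among the 5 restraining receptors, Adra2a was the one well above background in SVC and the one that did not pass 5-fold in MA.

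**Figure D1:**
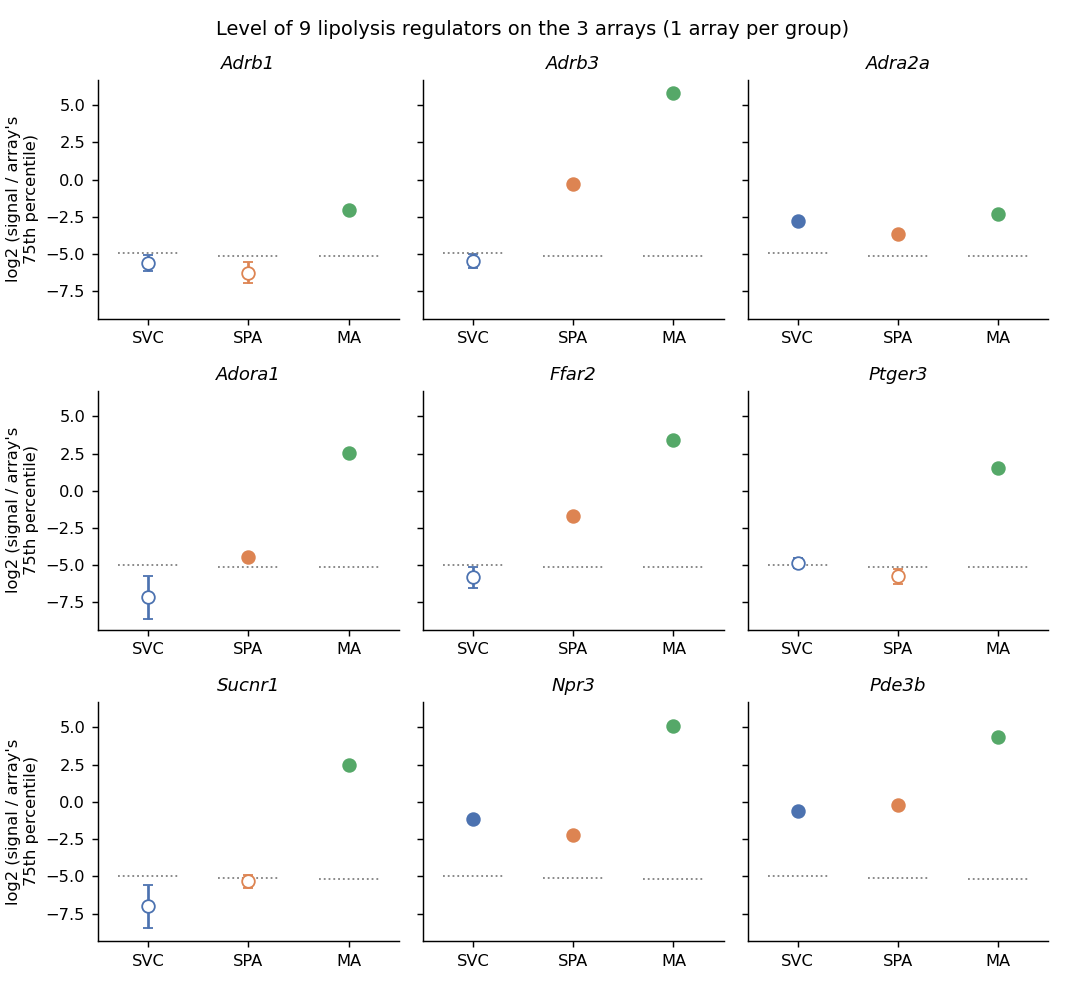
Each panel plots 1 gene, with the 3 arrays on the x axis and log2 of the signal over the 75th percentile of its array on the y axis. Bars are the software's 1 SD error within the array (smaller than the symbol in many cases), open symbols are not well above background, and dotted lines mark the lowest level that was. MA is the highest array in every panel, while Adra2a spans the smallest range. Heights may be compared between arrays, not between panels.

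Npr3 takes up natriuretic peptides and removes them. Its brighter probe (chr15:11769666-11769725, minus strand) read 197 ± 19.9 in SVC, 92.7 ± 9.66 in SPA and 12682 ± 1268 in MA. The gene was measured in every fraction, lowest in SPA (SVC 2.17-fold higher, log2 ratio of SPA over SVC -1.12 ± 0.21), and 164-fold higher in MA than in SPA (log2 ratio 7.36 ± 0.21). A probe 63067 bases away, designed on a separate cDNA record, read 20.0 ± 4.07, 28.1 ± 4.14 and 75.7 ± 8.01. It gave the opposite sign in SPA over SVC, with a log2 ratio of 0.46 ± 0.36, and 3.23-fold in MA over SPA. The last probe, on the first probe's record, was well above background in MA alone, at 597 ± 59.7 and at least 57.3-fold over SPA.

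Pde3b encodes the enzyme that breaks down cyclic AMP when insulin activates it. Its brighter probe (chr7:121681370-121681429, plus strand) read 282 ± 28.4 in SVC, 375 ± 37.6 in SPA and 7465 ± 747 in MA. SPA and SVC lay close together, with a ratio of 1.30 (log2 0.38 ± 0.21), and MA was 23.9-fold higher than SPA (log2 ratio 4.58 ± 0.20). The local background around this spot was marked as outlying in SVC and SPA. A second probe of the same record, without that mark, read 30.2 ± 4.60, 38.7 ± 4.90 and 526 ± 52.7, giving ratios of 1.26 and 16.3. The last probe was well above background in MA alone, at 53.4 ± 5.77 and at least 5.13-fold over SPA.

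Between the cultured fractions, 2 of the 9 members, Adrb3 and Ffar2, passed 5-fold upwards in SPA, as did 0.32% of the 22808 genes that could be read. Downwards 0 of 9 did, against 0.351% of those genes. Both calls are lower bounds, because neither gene was well above background in SVC, and Adrb1, Ptger3 and Sucnr1 had no fold in this comparison. Pde3b was 1.30-fold higher in SPA, Adora1 was higher by a fold with a lower bound of 1.41, and Adra2a and Npr3 were lower by less than 5-fold.

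Between MA and SPA, 8 of the 9 members were at least 5-fold higher, where 5.47% of 24101 genes were, and 0 were lower, where 3.97% were. Their median log2 ratio was 6.15, with 3 of the 9 values lower bounds, beside a median of -0.08 over the 20777 genes measured on both arrays. Between MA and SVC, 8 of 9 were again higher (5.72% of 23596 genes) and 0 lower (3.96%). There the median was 6.38, with 6 of the 9 values lower bounds. Both comparisons use the same MA array, so their counts are not separate evidence. Of the 19 probes, 13 passed 5-fold upwards in MA over SPA and 13 in MA over SVC, and 2 did in SPA over SVC. Several of these probes read the same gene, so they add no separate evidence, and the share over all probes was not computed.

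**Figure D2:**
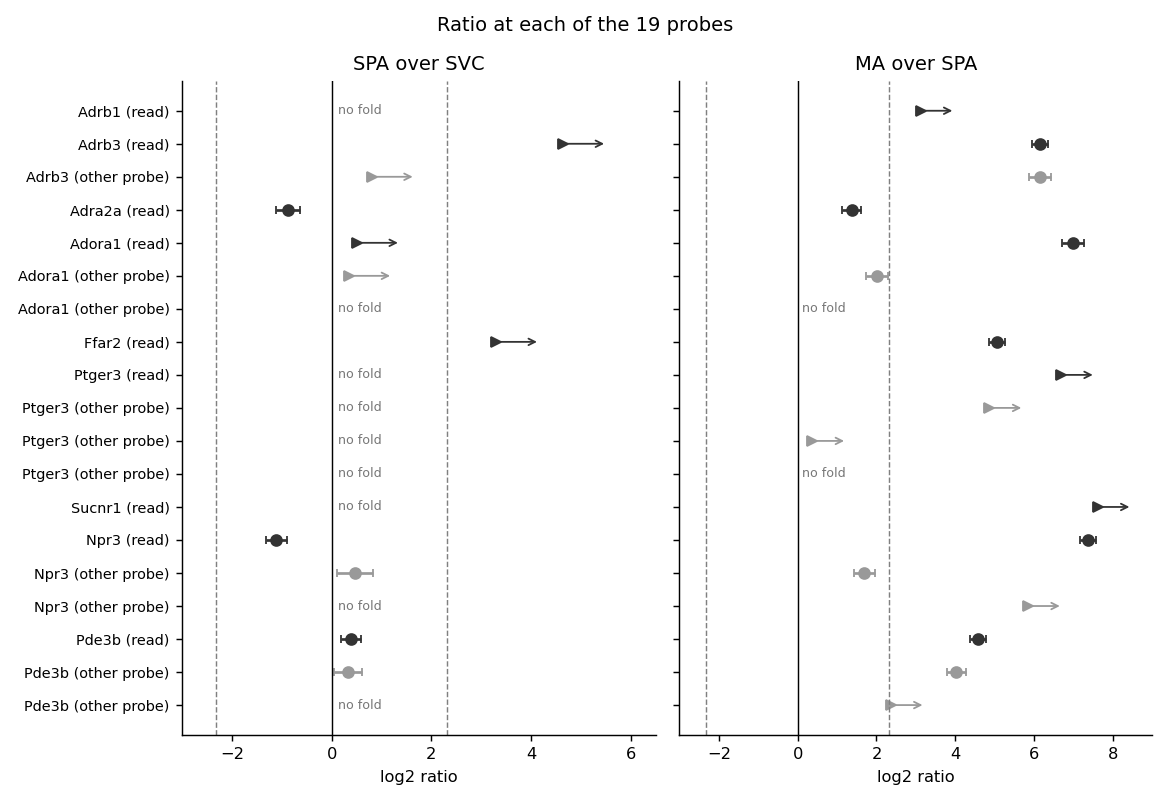
Log2 ratio (x axis) at each of the 19 probes (rows, black for the probe a gene is read at, grey for the others), for SPA over SVC on the left and MA over SPA on the right. Circles with bars are ratios with the combined within-array error, triangles with arrows are lower bounds, and dashed lines mark 5-fold. The ratios of the 2 Adrb3 probes in MA over SPA coincide at 6.15, whereas those of Adora1 (6.98 and 2.01) and Npr3 (7.36 and 1.69) lie apart.

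The genes around the members in the pathway were read from 10 lists of 94 genes. In SPA over SVC, 2 of them were at least 5-fold higher, both on the list of lipolysis effectors: Plin1, the droplet coat protein perilipin 1, at a log2 ratio of at least 5.86, and G0s2, an inhibitor of the triglyceride lipase ATGL, at 2.86. The neuropeptide Y receptor Npy1r was the 1 gene at least 5-fold lower, at -2.42. With the normexp correction Plin1 alone kept its call, while G0s2 stood at 2.18 and Npy1r at -1.30. Hormone-sensitive lipase Lipe (4.16-fold) and the glycerol channel Aqp7 (1.31-fold) did not pass 5-fold, each read at 1 of several probes. The study lists both among the genes raised 5-fold in SPA over SVC, so the count here depends on the reading of probes. Of the 94 genes, 83 had a fold here and their median log2 ratio was 0.27. Over all genes that could be read, 0.32% were at least 5-fold higher and 0.351% at least 5-fold lower.

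In MA over SPA, 22 of the 94 were at least 5-fold higher and 4 at least 5-fold lower, where 5.47% and 3.97% of all genes were. The count of lower genes is thus near the share over all genes. Over the 88 with a fold the median log2 ratio was 0.42. Among 16 other receptors coupled to Gs, 5 were higher, namely those for thyrotropin (Tshr, log2 ratio at least 5.25), corticotropin (Mc2r, 4.57), adenosine (Adora2a, 3.04), secretin (Sctr, 2.85) and GIP (Gipr, at least 2.61), and the prostacyclin receptor Ptgir was lower at -4.23. Among 10 other receptors coupled to Gi, 4 were higher. These were the niacin receptor Hcar2 (6.97), the receptor for long-chain fatty acids Ffar4 (at least 5.08, also described as acting through other G proteins), the lactate receptor Hcar1 (3.81) and the cannabinoid receptor Cnr1 (3.79). The adenosine A3 receptor Adora3 was lower at -2.59.

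Further down the route, most lists held 1 or a few genes past 5-fold. The Gi subunit Gnai1 was higher in MA at a log2 ratio of 4.09, the cyclases Adcy5 and Adcy4 at 4.19 and 2.98, the protein kinase A regulatory subunit Prkar2b at 2.77 and the phosphodiesterase Pde4b at 4.24. Adcy7 (-2.36) and Pde8b (-2.61) were lower. Pde3a, the other gene of the PDE3 family, stood at -1.19, and of the 15 other phosphodiesterases 13 were called in neither direction. On the list of insulin input to Pde3b, Irs2 (3.79) and Abhd15 (3.04) were higher, 2 of 6, and Abhd15 is known as a binding partner of PDE3B.

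The lipolysis effectors had the largest share, with 6 of 8 higher in MA than in SPA: Plin1 5.14, the monoglyceride lipase Mgll 4.85, hormone-sensitive lipase Lipe 3.97, ATGL Pnpla2 3.96, the glycerol channel Aqp7 3.71 and G0s2 2.89. None of the 7 genes of receptor desensitisation passed 5-fold in either direction, the largest difference being Grk3 at 1.79. None of the 7 genes of natriuretic peptide signalling other than Npr3 was called either. There the guanylyl cyclase receptor Npr1 was well above background in MA only, and its lower bound, a log2 of 2.26, does not reach 5-fold, while Prkg1 at -1.13 was the largest difference measured on both arrays. In MA over SVC, 24 of the 94 genes were higher and 3 lower, where 5.72% and 3.96% of all genes were. The lower ones, near the share over all genes in number, were Ptgir (-2.97), Adcyap1r1 (-2.91) and Adora3 (-2.50). The normexp correction kept 16 of the 22 genes higher in MA than in SPA and lost Gipr, Sctr, Adora2a, Hcar1, Cnr1 and Abhd15. Of the 4 lower ones in MA over SPA it kept Ptgir. In MA over SVC it kept 19 of the 24 higher genes. Of the 3 lower ones there it kept Adcyap1r1 and lost Ptgir (-2.28) and Adora3 (-0.96).

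**Figure D3:**
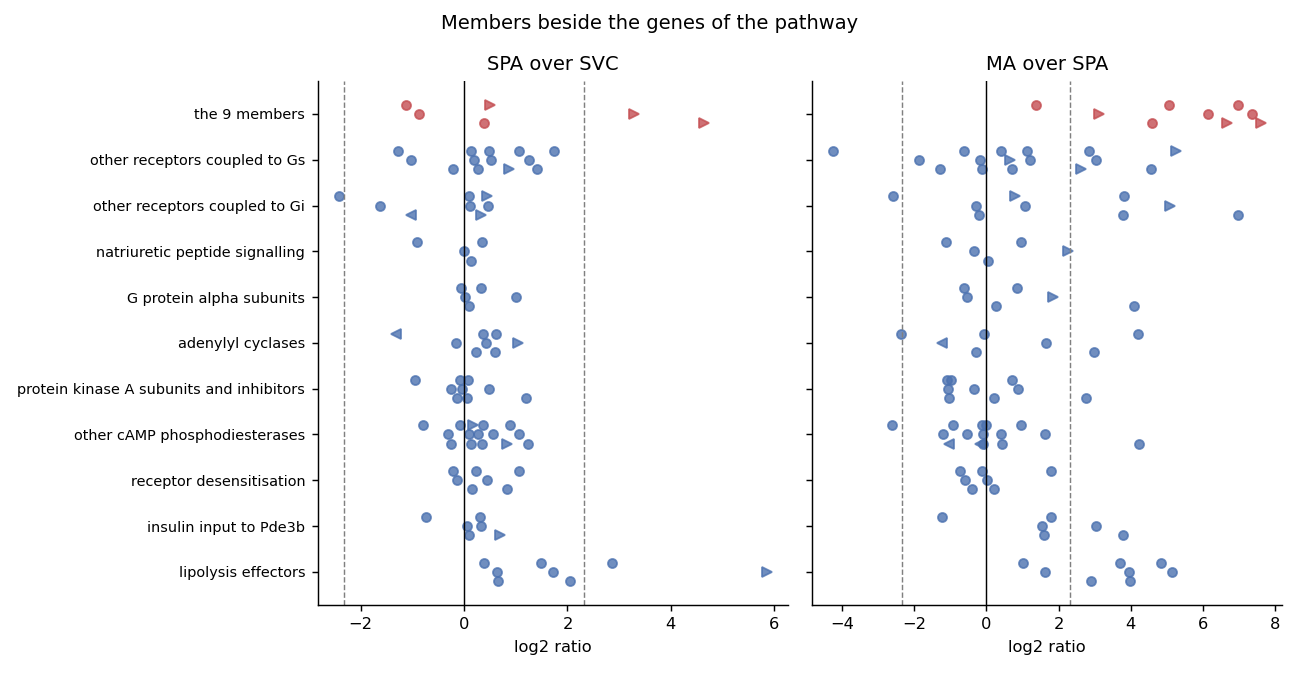
Log2 ratio (x axis) of the members (red, top row) and of the genes of 10 pathway lists (blue, 1 row per list), for SPA over SVC on the left and MA over SPA on the right. Circles are ratios, triangles are lower bounds pointing away from 0, and dashed lines mark 5-fold. Values spread on both sides of 0 in most lists, while 8 of 9 members and 6 of 8 lipolysis effectors lie right of the 5-fold line in MA over SPA.

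Markers of other cells of fat differed between MA and SPA as well. The summed level of 6 endothelial markers was 3.03 in SVC, 5.01 in SPA and 32.6 in MA, with 5 of 6 at least 5-fold higher in MA than in SPA. That of 5 mesothelial markers was 19.1, 5.63 and 19.4, with 4 of 5 higher in MA than in SPA and 0 of 5 higher in MA than in SVC. That of 3 erythrocyte markers was 0.177, 0.188 and 343, and of these Alas2 and Hbb-b1 were not well above background in SVC or SPA. Thus the summed endothelial, mesothelial and erythrocyte markers were higher in MA than in SPA, as were those of adipocytes. The sums given next for Schwann cells, fibroblasts and progenitors, neutrophils and lymphocytes were higher in MA too. Those of macrophages and of smooth muscle and pericytes were lower.

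The 6 neutrophil markers summed to 60.5, 68.1 and 79.7 in SVC, SPA and MA, with S100a9 and Retnlg past 5-fold in MA over SPA. The 5 lymphocyte markers summed to 6.14, 6.71 and 8.32, with Nkg7 past it. Macrophage markers, all 7 well above background on every array, summed to 558, 617 and 195, with Cd68 lower in MA. The 7 fibroblast and progenitor markers summed to 242, 142 and 272, and 0 passed the limit in MA over SPA. Smooth muscle and pericyte markers summed to 344, 139 and 36.6, with Rgs5 and Cspg4 higher and Acta2 lower. Acta2 was the brightest of this list on every array, Lyz2 of the macrophage markers and Hba-a1 of the erythrocyte markers. Each of these sums mostly follows its brightest gene. Schwann cell markers summed to 0.287, 0.571 and 2.44, with S100b higher. The part of these cells in the members' levels was not tested, and in such whole fractions more cells of a type and more RNA per cell cannot be told apart.

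**Figure D4:**
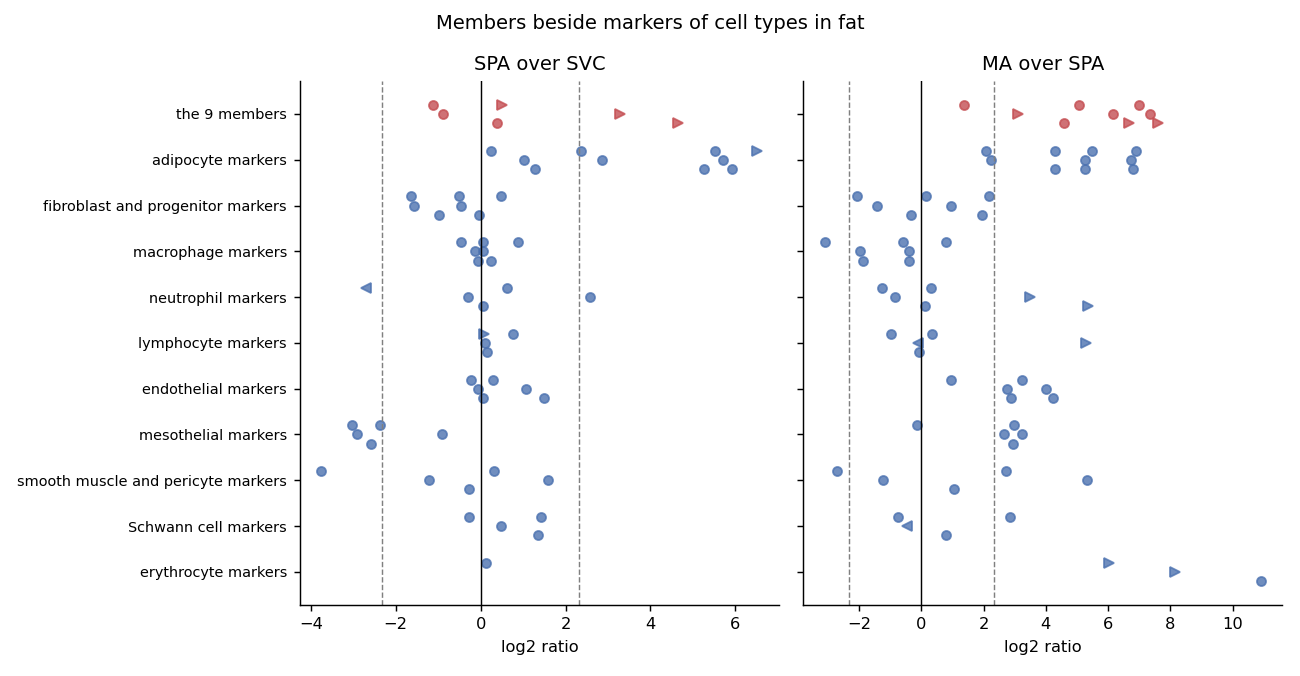
Log2 ratio (x axis) of the members (red, top row) and of markers of 10 cell types (blue, 1 row per type), for SPA over SVC on the left and MA over SPA on the right. Circles are ratios, triangles are lower bounds pointing away from 0, and dashed lines mark 5-fold. In SPA over SVC 7 of 10 adipocyte markers lie right of the line and 4 of 5 mesothelial markers left of the opposite one, and in MA over SPA adipocyte, endothelial, mesothelial and erythrocyte markers lie mostly to the right with the members.

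For the 3 members measured on every array, the genes with the most similar steps were sought among 19970 genes well above background on all 3 arrays, by the distance between the steps SVC to SPA and SPA to MA in log2 units. Nearest to Npr3 was Ccl24, the chemokine eotaxin-2, at a distance of 0.10 with steps of -1.21 and 7.36. It was the only gene (1) within 0.5 of Npr3, and Hcar2 (0.65) and Cxcl10 (0.85) came next. Pde3b had 44 genes within 0.5, led by Gm4951 (0.05), Plaat3 (0.07), a phospholipase of fat cells, and Prodh (0.12). Adra2a had 202, led by Ifi47 (0.04), ENSMUST00000178794 (0.05) and Fibin (0.06). The likeness rests on 3 arrays.

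Promoter sequences from RefSeq on GRCm38.p6, a later build than that of the probes, matched 7 of the 9 members with 11 start sites, all but Adrb3 and Pde3b. A pair is shown because the genes behaved differently: Ffar2, which rose in both steps, and Adra2a, which did not pass 5-fold. Each is the 250 bases before the start, 5′ to 3′ along the gene. Capitals mark TGACCT and TTAAGCAA in Ffar2, which match AGGTCA, a nuclear receptor word, and TTGCNNAA, a C/EBP word, both on the opposite strand. In Adra2a they mark TGACG, the core of a cyclic AMP response element, and TATAAA, the TATA box.
Ffar2, chr7:30823776-30824025, minus strand: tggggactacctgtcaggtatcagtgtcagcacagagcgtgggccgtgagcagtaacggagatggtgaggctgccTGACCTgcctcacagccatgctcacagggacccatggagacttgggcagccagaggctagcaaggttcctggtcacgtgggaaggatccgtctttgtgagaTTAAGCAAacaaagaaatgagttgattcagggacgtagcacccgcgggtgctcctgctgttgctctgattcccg
Adra2a, chr19:54045009-54045258, plus strand: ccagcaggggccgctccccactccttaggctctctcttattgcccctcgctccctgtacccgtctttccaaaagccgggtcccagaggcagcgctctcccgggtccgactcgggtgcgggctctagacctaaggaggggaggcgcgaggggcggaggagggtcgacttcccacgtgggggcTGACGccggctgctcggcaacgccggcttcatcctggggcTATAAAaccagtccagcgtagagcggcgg
The words were searched on both strands from 250 bases before to 50 after the start, and a hit of the full cyclic AMP response element or of the direct repeat of AGGTCA with a gap of 1 base is also a hit of the shorter word. In 32851 promoters of all genes, AGGTCA was found in 16.3%, TTGCNNAA in 10.8%, TGACG in 20.8% and TATAAA in 13.6%. Among the members, AGGTCA and TTGCNNAA were found at Ffar2 only, TATAAA at Adra2a only and TGACG at Adra2a, Adrb1 and Npr3. Ffar2 had more of the 11 start sites than any other member, some with overlapping windows, and so more bases searched. AGGTCA was found at 3 of its start sites and TTGCNNAA at 4. A link between the words and the levels was not tested. The full element TGACGTCA (1.79% of all promoters) and the direct repeat (0.0396%) were found at 0 of the 7.

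The members' ratios were computed again under 9 other settings of background, scaling and probe choice. No member called in the main setting changed sign. In MA over SPA, Adora1 fell under 5-fold when the median of its probes was used (log2 ratio 2.01 in place of 6.98), and the lower bound of Ptger3 moved from 6.68 to 2.62 in the same way. In SPA over SVC, Adora1 passed 5-fold if its SVC signal was taken at face value (2.70 in place of at least 0.50). The calls of Adrb1 and Ffar2 that depend on the normexp correction are given above.

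**Figure D5:**
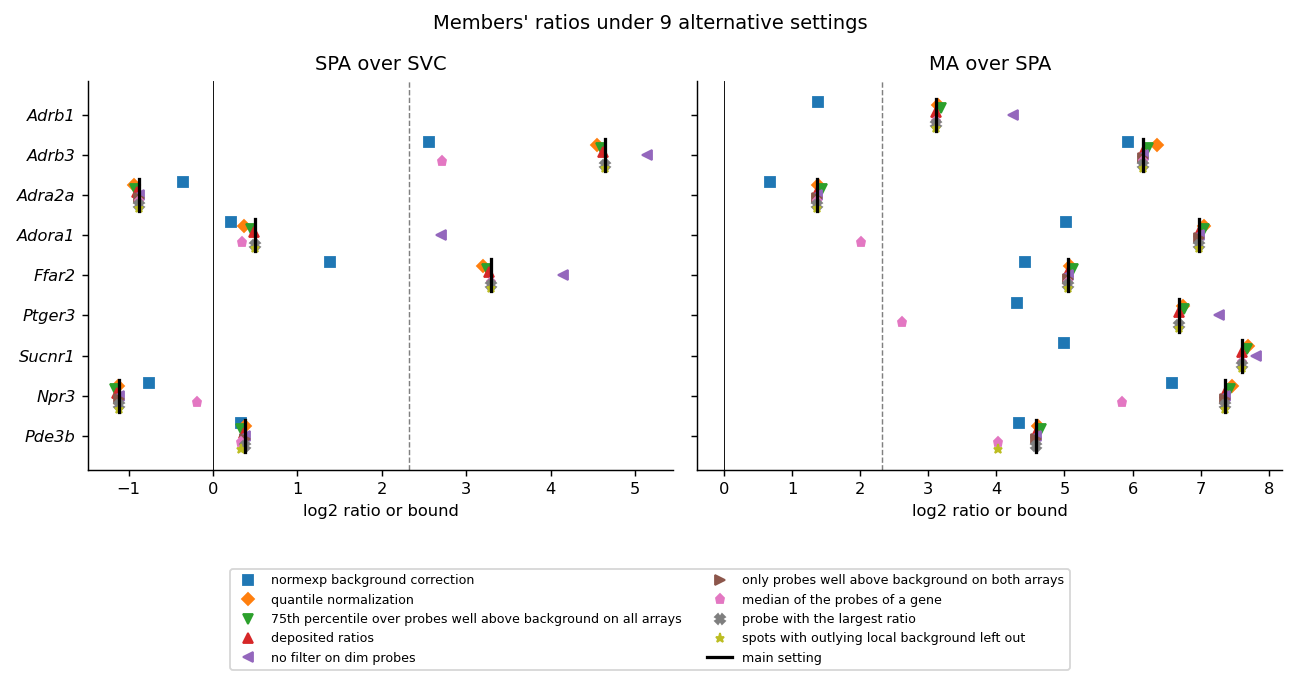
Log2 ratio or bound (x axis) of each member (rows) under 9 alternative settings (coloured symbols, named in the key), with the main setting as a black bar, for SPA over SVC on the left and MA over SPA on the right. The dashed line marks 5-fold. In MA over SPA, the lower bound of Adrb1 crosses the line under the normexp correction (1.38) and Adora1 under the median of probes (2.01), and the 6 remaining members past 5-fold stay to its right.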

How the data were processed

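The authors deposited a spot intensity from Agilent Feature Extraction 10.7.3.1, the processed signal (background subtracted, detrended) with its error and its call of well above background. They also deposited 1 ratio per probe and array, which equals the processed signal divided by a constant per array (373.6 in SVC, 386.1 in SPA and 322.1 in MA, largest relative departure 1.37e-06), whose origin is not given in the sources used here. The arrays were on 1 slide and in 1 scan, and 0 columns of other samples were present.

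Control spots and spots flagged as outliers (75 in SVC, 98 in SPA, 129 in MA) were left out, spots of a probe were averaged, and each array's log2 signals were scaled to their 75th percentile. The outlier flag of the local background fell on 3.21%, 5.01% and 1.85% of spots. Of several probes of a gene, the one brightest on average over the 3 arrays was used. It was called at 5-fold with the brighter array well above background. With 1 array per group, the number of arrays limits the precision and no test was run. The 9 members, the lists of pathway genes and markers and the probes and promoters shown were chosen with earlier results of these data known, so their counts are descriptions. Named pathway genes are those past 5-fold or, in lists without any, the largest difference measured on both arrays. Pde3a and Npr1, and Lipe and Aqp7 in SPA over SVC, were added after their values were seen. Named markers are those past 5-fold or not well above background, and results for some markers are not reported here. The nearest 3 genes are given for members measured on all arrays.

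Alternatives for the values were quantile normalization, the normexp correction (offset 50), a 75th percentile taken over probes detected on every array, and the ratios as deposited. Alternatives for the reading were plain ratios of dim probes, probes detected on both arrays only, the median or the most extreme of a gene's probes, omission of spots with outlying local background, and limits of 3-fold and 2-fold. Probe positions (mm9) come from the array annotation. Gene names were updated through RefSeq accessions for 32994 of 56602 probes, and promoters are RefSeq's. The reading of folds was tested on simulated data. The tools were R 4.3.3 (limma 3.58.1) and Python 3.11.15 (pandas 2.3.3, numpy 2.4.6, matplotlib 3.10.9).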

Additional observations from a re-analysis of the deposited data

How the results depend on the processing

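Every member value past 5-fold kept its direction under each alternative that gave one. In SPA over SVC the members past 5-fold upwards numbered 2 in the main setting, 1 with the normexp correction (Adrb3) and 0 with probes detected on both arrays only. At the 2-fold limit 1 member was lower in SPA (Npr3), where 740 of 22808 genes were. It was read at its brighter probe (log2 ratio -1.12), while another Npr3 probe gave 0.46 and the median of its probes -0.19. The filter for detection on both arrays left 5 members higher in MA than in SPA and 2 higher in MA than in SVC, because it removes every gene that was at background on the dimmer array. Of all genes measured on both arrays, 990 of 20777 were higher in MA than in SPA. For MA over SVC the count was 941 of 20174, and for SPA over SVC 51 of 20822. Over all genes, the normexp correction gave 762 higher and 459 lower in MA than in SPA, in place of 1318 and 957, and 30 higher and 15 lower in SPA than in SVC, in place of 73 and 80. Without the filter on dim probes the latter counts were 287 and 159. In MA over SVC the normexp counts were 782 and 441, in place of 1349 and 935. The 3-fold limit gave 236 and 262 in SPA over SVC, 2238 and 2083 in MA over SPA and 2406 and 2033 in MA over SVC, and the 2-fold limit 888 and 740, 3794 and 4333, and 4059 and 4259. Of the counts over the pathway and marker lists, 1193 stayed within 1.5 times the main count and 127 did not. Of 204 member ratios under the alternatives, 159 moved by less than the within-array error of the main value and 45 by more. A reversal was counted only for ratios past 5-fold in the main setting, and 0 were found. Lower bounds and the setting of the most extreme probe could not give a reversal. Scaling moved the median of all genes by less than 0.1 in log2 units in each comparison. Ratios against SVC rest on signals at background for 6 of the 9 members, which limits what they show. No paired analysis was possible because each group has 1 array.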
